A study of Chlorocebus sabaeus with 12 samples.

Results

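Solute carriers are membrane proteins that move small molecules across the cell's membranes, and this account covers 16 of their families, those for sugars, amino acids, monocarboxylates, nucleosides, peptides, bile acids and other organic ions. Members were taken by name, as every gene on the array whose symbol placed it in SLC1, SLC2, SLC3, SLC5, SLC6, SLC7, SLC10, SLC13, SLC15, SLC16, SLC22, SLC28, SLC29, SLC36, SLC38 or SLC43, without use of any measured value. The rule found 131 genes among 30982 names on the array, and 87 of them were bright enough to be tested, against 20355 genes tested in all.

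The study is about phosphorylation of FXR, the nuclear receptor for bile acids, whose gene is NR1H4, and it measured RNA from COS-1 cells, an SV40-transformed kidney line of the African green monkey, on 12 one-colour human arrays. All cells had been transfected for 24 h with a mutant of human FXR, in which a serine was replaced by aspartate (S154D, a charged residue) or by alanine (S154A, which cannot be phosphorylated), and then treated for 24 h. The groups were S154D with chenodeoxycholic acid (CDCA, a bile acid that activates FXR, given in the labels as 50 mM, a unit that the files do not let one check), S154D with 0.1% DMSO, S154A with CDCA and S154A with DMSO, with 3 arrays each. The labels do not say whether replicates were separate cultures, so the p-values measure the spread between these arrays, and no array used here held wild-type FXR or untransfected cells.

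Many carriers couple their substrate to sodium, chloride or protons and can concentrate it, whereas others exchange or only equilibrate it. Several SLC7 proteins reach the membrane only when bound to a heavy chain of the SLC3 family, and the SLC16 lactate carriers need basigin in the same way. In liver and ileum, the SLC10 proteins take up bile acids, and FXR, which those bile acids activate, holds their uptake and synthesis in check. COS-1 cells come from kidney, where carriers of these families recover sugars, amino acids and organic ions from the filtrate.

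Levels are log2 of the background-subtracted signal minus the 75th percentile of the array, so 0 is the level of that percentile, and a level of 1 probe is never set against that of another. NR1H4 had a clear signal on all arrays, with 7.71, 7.49 and 7.49 in S154D with CDCA, 7.90, 7.94 and 7.46 in S154D with DMSO, 7.46, 7.73 and 7.59 in S154A with CDCA, and 7.65, 7.92 and 7.63 in S154A with DMSO. Its level with S154D differed from that with S154A by -0.03 in CDCA (95% interval -0.36 to 0.31) and by 0.03 in DMSO, so the groups overlapped for the transfected gene. Of the markers of kidney fibroblast-like cells, 5 of 6 were tested and COL1A2 was at background on all 12 arrays. The proximal tubule markers had 4 of 7 tested, with SLC22A6 at background on all arrays, and of the leukocyte markers PTPRC was at background on all arrays, while CD3E and LYZ were well above it on all 12. The summed log2 level of the fibroblast-like markers lay between 8.16 and 8.39 in S154D with CDCA, 8.26 and 8.50 in S154D with DMSO, 8.08 and 8.49 in S154A with CDCA, and 8.14 and 8.32 in S154A with DMSO, and those ranges overlap. COL1A1 among them fell with CDCA in S154D, by 0.56 on the log2 scale. The summed log2 level of the 5 epithelial markers tested was 6.61 to 6.82 in S154D with CDCA, against 6.93 to 7.0 in S154D with DMSO, 6.96 to 7.03 in S154A with CDCA and 6.72 to 6.97 in S154A with DMSO. The S154D arrays with CDCA thus lay below those of S154D with DMSO and of S154A with CDCA in this sum, and overlapped those of S154A with DMSO. Single markers of that list went both ways with CDCA in S154D, with KRT8 at -0.40, KRT18 at -0.17, KRT19 at 0.14, CDH1 at 0.36 and TACSTD1, the gene called, at 0.52 (median 0.14). The share of G and C (GC) in the probe used was 51.7% for COL1A1, 55% for KRT8 and KRT19 and 48.3% for KRT18. For CDH1 and TACSTD1 it was 35%. Another probe of KRT8, of 41.7% GC, moved by 0.15, while the other probes of KRT18 moved by -0.36 to -0.11. The part of these markers in the changes below was not tested. In bulk RNA, fewer cells of a kind and less RNA per cell cannot be told apart.

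COS-1 cells gave signal for a broad set of these carriers. A signal well above background on all 12 arrays was found for 71 of the 131 genes, another 16 were tested with signal on fewer arrays, 25 had signal on 1 to 7 arrays and were not tested, and 19 had it on 0 arrays. All 4 equilibrative nucleoside carriers (SLC29), both heavy chains (SLC3), 5 of 7 glutamate and neutral amino acid carriers (SLC1) and 11 of 14 monocarboxylate carriers (SLC16) were seen on all 12 arrays. The sodium-driven nucleoside carriers stood at the other end, with 0 of 3 tested, SLC28A2 and SLC28A3 on 0 arrays and SLC28A1 on 2. The other 17 genes on 0 arrays included the choline carrier SLC5A7, the noradrenaline and dopamine carriers SLC6A2 and SLC6A3, the proline and betaine carriers SLC6A7 and SLC6A12, SLC5A9, SLC6A20, SLC7A3, SLC7A7, SLC7A13, SLC15A2, SLC16A12, SLC22A2, SLC22A3 and SLC36A2. The signal came from monkey RNA on human probes. Of the 131 symbols, 126 are also green monkey RefSeq symbols and 5 are not (SLC2A3, SLC2A14, SLC22A9, SLC22A10 and SLC22A18), and the match of the human probes to monkey RNA was not tested.

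**Figure D1:**
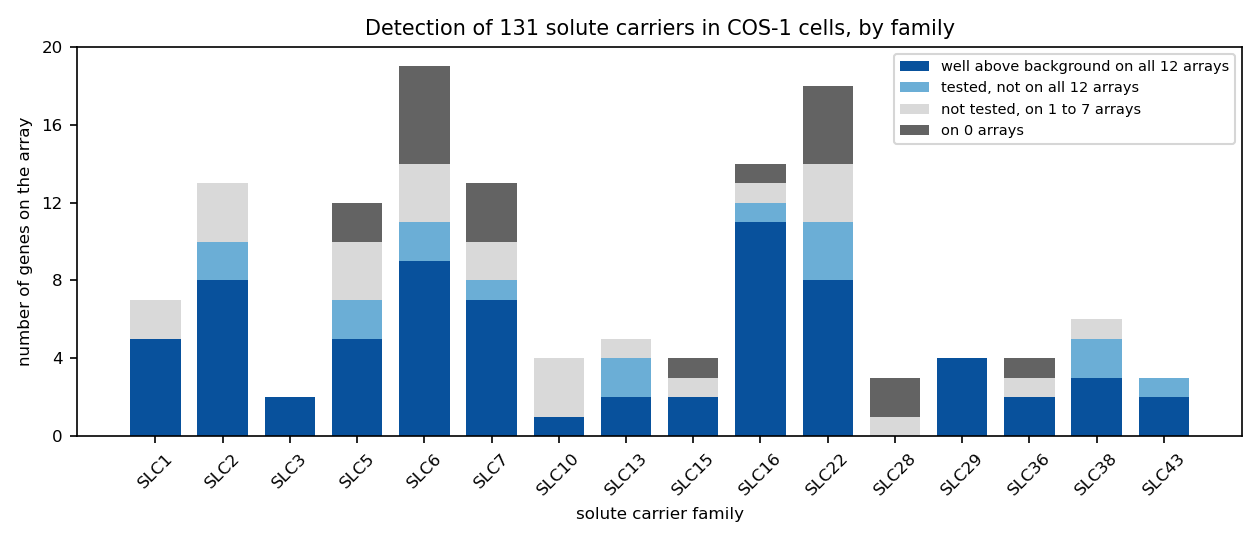
Number of solute carrier genes per family (vertical axis), split by how many of the 12 arrays had a signal well above background. The SLC6 family has 9 of 19 genes on all 12 arrays and SLC16 has 11 of 14, whereas SLC28 has 0 of 3 and SLC10 has 1 of 4.

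The bile acid carriers themselves were at the edge of detection. SLC10A1, the sodium-dependent bile acid carrier of hepatocytes, and SLC10A2, that of ileum and kidney tubule, were each well above background on 1 array, which in both cases was S154A with DMSO, and SLC10A4 was on 1 array as well. Only SLC10A3, a family member with no settled substrate, was tested among the 4. The peptide carrier SLC15A1 was on 2 arrays, the organic anion carriers SLC22A6 and SLC22A8 of the kidney tubule were on 0 arrays, and the hexose carriers SLC2A2 and SLC2A3 were on 1 and 5 arrays.

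With S154D, CDCA changed 8 of the 87 solute carriers tested. Among those that rose were the glutamate carrier SLC1A3, the aromatic amino acid carrier SLC16A10, the neutral amino acid carrier SLC43A2 and the branched-chain amino acid carrier SLC6A15. The glutamine carrier SLC1A5, the monoamine and nucleoside carrier SLC29A4 and SLC22A17, also described as a receptor for lipocalin-2, fell. The changes lay between -0.79 and 0.79 on the log2 scale. The call was an adjusted p under 0.05 in limma, and it was met by 10.2% of all genes tested. The members' 8 of 87 (9.20%) stood close to that background, with 5 higher (5.75%, against 6.55% of all genes) and 3 lower (3.45%, against 3.65%). At an unadjusted p under 0.05 the share was 24 of 87 members (27.6%), against 30.0% of all genes. The median change of the 87 was -0.01, as it was over all genes, and the median size of a change was 0.29 in members, against 0.27 in all genes.

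The change with S154D also ran with the base composition of the probes, described below, and several probes are shown first. Each probe has 60 bases, of which the first 30 are printed from 5′ to 3′ with G and C in capitals. These 5 were chosen, after their values were seen, because a pair on the same gene differed in direction or, for SLC1A5, because the gene was called in 2 comparisons. All lie on the minus strand of the human build hg17 as the scanner files give it. No annotation of that build was used, so their place in exon or UTR is not given.
SLC43A2, 25% GC, chr17:1424452-1424511: tattttCtCttCaGttttattaGaCttCtt
SLC43A2, 55% GC, chr17:1436077-1440886: CaaCatCCtCaaGttCCtGGtCaGCGGCGa
SLC7A1, 35% GC, chr13:28982093-28982152: CaaGGCaaatGattttGtGtttCttGatGa
SLC7A1, 45% GC, chr13:28989413-28989734: GtGaaCatttCaaCCaGCCttataGCtGtt
SLC1A5, 53.3% GC, chr19:51970739-51970798: GCaGGaCtCCtCCaaaattatGtGGaCCGt
The 2 higher-GC probes of SLC43A2 and SLC7A1 have coordinates that run over more genome than the 60 bases of a probe.

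Among the sodium-driven amino acid carriers, SLC1A5 takes up glutamine, alanine and serine. Its level was -1.83, -1.90 and -2.34 in S154D with CDCA, against -1.31, -1.54 and -1.41 in S154D with DMSO. All 3 CDCA arrays lay below all 3 DMSO arrays, a change of -0.60 ± 0.15 (SE, adjusted p = 0.0382 by limma, n = 3 arrays each). With S154A the same probe read -1.02, -1.35 and -0.96 in CDCA, against -1.60, -1.61 and -1.62 in DMSO. There all 3 CDCA arrays lay above the DMSO arrays, by 0.50 ± 0.15, which was not called (adjusted p = 0.668 by limma). On the slide that held all 4 groups the changes were -0.49 with S154D and 0.60 with S154A.

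SLC1A3 removes glutamate from the extracellular space and is best known from glia. It read -3.21, -3.40 and -3.17 in S154D with CDCA, against -4.22, -3.98 and -3.90 in S154D with DMSO, without overlap. The change was 0.78 ± 0.15 (SE, adjusted p = 0.0275 by limma, n = 3 arrays each) for its probe at chr5:36723961-36724020. With S154A it read -3.85, -4.02 and -4.05 in CDCA, against -3.49, -3.95 and -3.44 in DMSO, and these overlapped (-0.35 ± 0.15, adjusted p = 0.838 by limma). Its other kept probe, well above background on 8 of 12 arrays, moved by -0.06 with S154D. The difference between the probes of SLC1A3 was not tested.

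SLC6A15, a carrier of branched-chain amino acids and proline known from brain, read -1.81, -2.03 and -1.94 in S154D with CDCA, against -2.55, -2.31 and -2.53 in S154D with DMSO (0.54 ± 0.15, adjusted p = 0.0464 by limma, n = 3 arrays each). Its other 2 kept probes moved by 0.35 and 0.49 in the same direction. With S154A, SLC6A15 overlapped between the treatments, with a change of 0.00.

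SLC16A10 equilibrates tyrosine, tryptophan and phenylalanine, although it belongs to the monocarboxylate family by sequence. It read -2.66, -3.10 and -3.02 in S154D with CDCA, against -3.71, -3.41 and -3.63 in S154D with DMSO (0.66 ± 0.16, adjusted p = 0.0351 by limma, n = 3 arrays each). The CDCA arrays lay above the DMSO arrays, while with S154A the 2 treatments overlapped (0.17). SLC43A2, which lets leucine, phenylalanine and methionine leave the cell, read -0.89, -0.98 and -1.01 in S154D with CDCA, against -1.78, -1.70 and -1.78 in S154D with DMSO. That change of 0.79 ± 0.21 was called (adjusted p = 0.0437 by limma, n = 3 arrays each), and with S154A the arrays overlapped (0.42 ± 0.21, adjusted p = 0.860 by limma).

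SLC22A17 had the smallest adjusted p of the members, on a probe at chr14:22886589-22886648. It read -0.66, -0.87 and -1.0 in S154D with CDCA, against -0.06, -0.14 and 0.05 in S154D with DMSO, a change of -0.79 ± 0.12 (SE, adjusted p = 0.0265 by limma, n = 3 arrays each). With S154A it read -0.46, -0.24 and -0.22 in CDCA, against -0.23, -0.16 and -0.32 in DMSO, which overlap. SLC29A4 carries serotonin, dopamine and adenosine. It read -1.99, -2.30 and -2.56 in S154D with CDCA, against -1.86, -1.75 and -1.68 in S154D with DMSO (-0.52 ± 0.14, adjusted p = 0.0445 by limma, n = 3 arrays each), and with S154A the treatments overlapped (0.12).

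**Figure D2:**
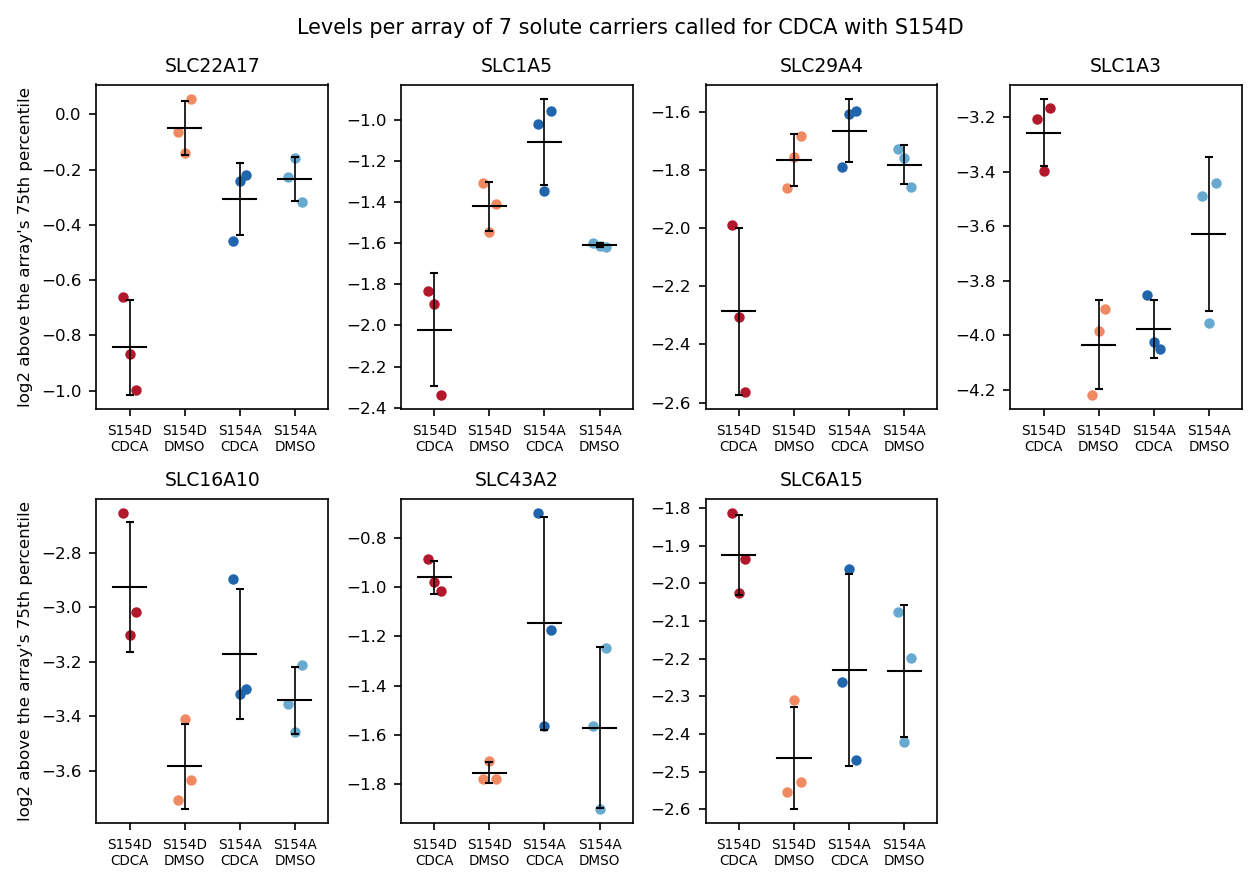
Level per array (log2 above the array's 75th percentile, vertical axis) of 7 of the solute carriers called for CDCA with S154D, in the 4 groups of 3 arrays. Points are arrays, bars the mean and whiskers the SD. In each panel the S154D arrays with CDCA lie apart from those with DMSO, and for SLC1A5 the order of the treatments is the other way round with S154A.

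These 8 calls depended on the fit and on the array set. Slide 2 held only S154D_CDCA 1, S154D_CDCA 3 and S154A_DMSO 2, and S154D_CDCA 2 was on slide 3. The arrays of S154D with DMSO, and those of S154A with CDCA, were on slides 1, 3 and 4. For CDCA with S154D, and for the mutants in CDCA, slide and group thus largely coincide and cannot be fully told apart. With the slide as a fixed block, 0 of the 87 members were called for CDCA with S154D (adjusted p of the 8 between 0.138 and 0.213, with changes between -0.83 and 0.84). Without S154D_DMSO 1, without S154D_DMSO 3 or without S154D_CDCA 3, 0 members were called. Leaving out S154A_DMSO 1 left 3, S154A_DMSO 3 left 2 and S154D_CDCA 2 left 4, and leaving out S154A_DMSO 2, S154A_CDCA 1 or S154D_DMSO 2 left 5 each. On the slide with all groups the 8 changes kept their signs, between -0.92 and 0.80, from 1 array a group and with no test.

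The change with S154D ran with the base composition of the probe. Across the 87 members, Spearman's rho between the change and the probe's GC content was -0.59, against -0.56 across all genes. These points share their arrays, and genes are no independent replicates. The 5 carriers that rose had probes of 25% to 40% GC and the 3 that fell had probes of 53.3% to 60%, against a median of 45% over members and over all genes. After each array's values had been corrected for a smooth trend on GC, 0 of 87 members were called. The changes then stood at 0.54 for SLC1A3, 0.45 for SLC6A15, 0.35 for SLC16A10, 0.09 for SLC43A2, -0.19 for SLC29A4, -0.30 for SLC1A5 and -0.42 for SLC22A17, with adjusted p between 0.135 and 0.777 by limma. The signs of these changes were kept, and SLC43A2 lost most of its change. With S154A the rho was -0.26 across members, against -0.11 across all genes.

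**Figure D3:**
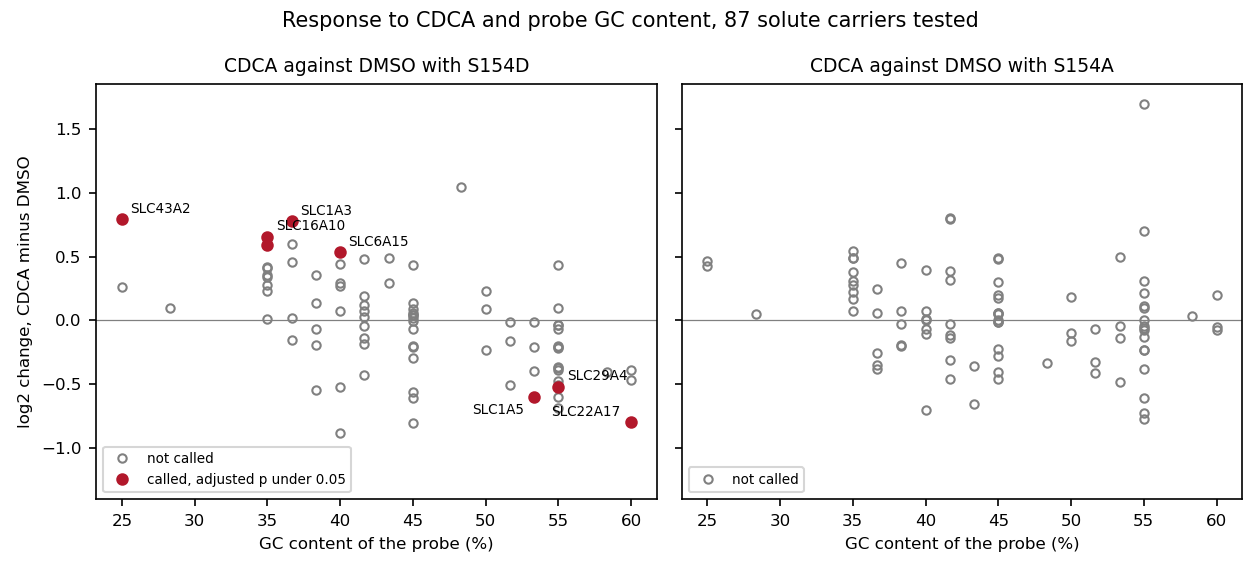
Log2 change of each of the 87 solute carriers tested (CDCA minus DMSO, vertical axis) against the GC content of its probe in percent, with S154D (left) and S154A (right). Filled points are the 8 members called, and with S154D the change declines as GC rises (Spearman's rho -0.59), while with S154A the points lie more evenly around 0 (rho -0.26).

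The same relation was seen between probes of the same gene. In 22 members with kept probes of different GC content, the probe lowest in GC had the higher change with S154D in 16 (72.7%), against 71.4% of 4509 genes with such probes, with a median gap of 0.43, against 0.25. In 12 of the 22 the low-GC probe rose in value and the high-GC probe dropped, and in 2 it was the other way round. SLC43A2 moved by 0.79 on its probe of 25% GC and by -0.45 on that of 55%. SLC7A1, a carrier of arginine and lysine, moved by 0.34 on the probe of 35% GC and by -0.69 on that of 45%, both printed above. With S154A the probes of each gene lay closer, at 0.42 and 0.04 for SLC43A2 and at 0.38 and 0.21 for SLC7A1, and the low-GC probe was the higher in 12 of 22 members (54.5%), against 50.8% of all such genes. The letters differ between the probes of a pair as well as their place in the transcript, and the part of each in the gap was not tested.

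**Figure D4:**
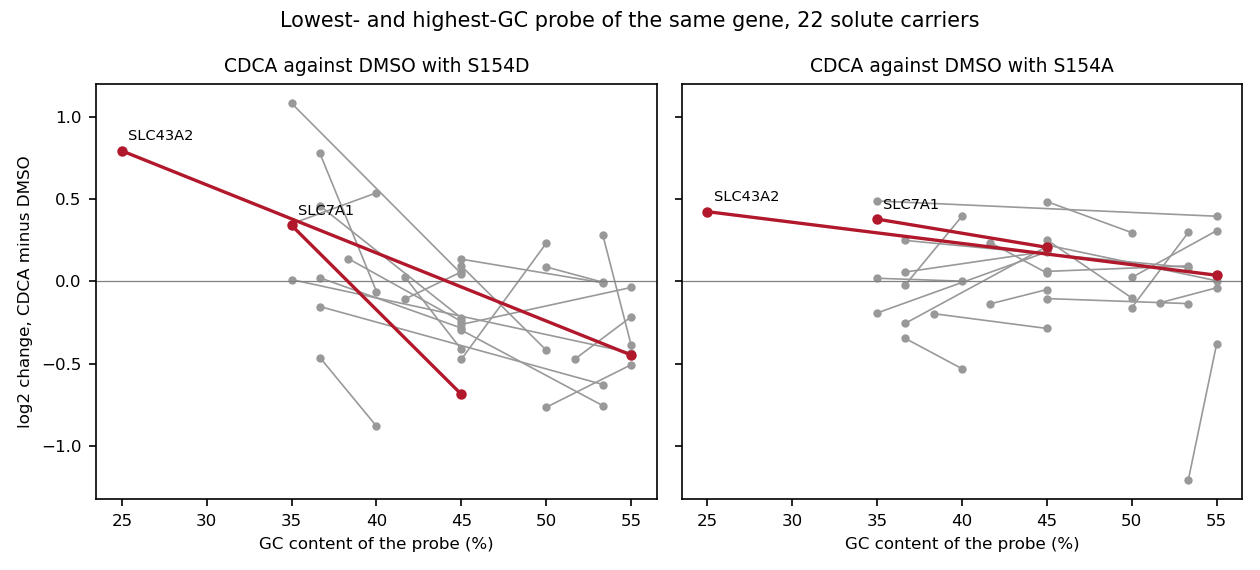
Log2 change (CDCA minus DMSO, vertical axis) of the lowest- and the highest-GC kept probe of 22 solute carriers, joined by a line, against probe GC content in percent, with S154D (left) and S154A (right). The lines for SLC43A2 and SLC7A1 cross 0 with S154D, at 0.79 and -0.45 and at 0.34 and -0.69, and stay above 0 with S154A.

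Several members lay just outside the threshold with S154D. SLC16A9, a carrier of carnitine and related compounds, read -2.65, -2.37 and -2.44 in S154D with CDCA, against -2.89, -2.98 and -3.04 with DMSO (0.49, adjusted p = 0.0522 by limma). SLC38A6 followed at 0.36 (adjusted p = 0.0625 by limma) and the glucose carrier SLC2A1 at 0.42 (adjusted p = 0.0662 by limma). SLC2A1 read 2.89, 2.84 and 2.97 in S154D with CDCA, against 2.54, 2.66 and 2.24 with DMSO. The glutamine carrier SLC38A1 stood at 0.35 (adjusted p = 0.0693 by limma) and the carnitine carrier SLC22A5 at 0.28 (adjusted p = 0.0696 by limma). After the GC correction SLC2A1 stood at 0.11, SLC38A1 at 0.05 and SLC22A5 at -0.03. In all 5, before that correction, every CDCA array lay above every DMSO array, which held in that direction for 14 of 87 members (16.1%), against 20.2% of all genes. The largest value among the members belonged to SLC13A5, the citrate carrier, at 1.05 (adjusted p = 0.0758 by limma). It was well above background on 3 of 3 arrays in S154D with CDCA and on 1 of 3 in each other group.

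Several carriers with well known roles in growth, other than SLC1A5, did not pass the test with S154D. The exchanger of large neutral amino acids, SLC7A5, moved by 0.01 (95% interval -0.34 to 0.36), its heavy chain SLC3A2 by 0.02 (-0.36 to 0.40) and the cystine carrier SLC7A11 by 0.23 (-0.21 to 0.67). The second kept probes of SLC7A5 and SLC3A2 moved by -0.43 and -0.28, and after the GC correction the changes were -0.30 for SLC7A5, -0.22 for SLC3A2 and -0.08 for SLC7A11. The alanine and serine carrier SLC1A4 moved by -0.04, the glutamine carrier SLC38A2 by 0.08, the taurine carrier SLC6A6 by 0.09 and the inositol carrier SLC5A3 by -0.04. SLC38A2 and SLC5A3 had wide intervals (-0.67 to 0.82 and -0.92 to 0.84), and both had S154D_CDCA 1 apart from the group's other arrays. SLC38A2 was at -2.47 there, with -1.10 and -1.26 on the others, and SLC5A3 was at -2.57, with -4.02 and -4.09. The lactate carriers SLC16A1 and SLC16A3 moved by 0.27 and -0.07, the vitamin carrier SLC5A6 by 0.03, the equilibrative nucleoside carrier SLC29A1 by -0.20 and the amino acid carrier SLC43A1 by -0.21.

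By family, the medians with S154D lay between -0.40 for SLC29 (4 genes tested) and 0.18 for SLC7 (8 genes tested), against -0.01 for all genes. All 4 SLC29 genes had values below 0 and 7 of 8 SLC7 genes had values above 0, and 1 SLC29 gene and 0 SLC7 genes were called. These values are for the probes used, without the GC correction. The second kept probes of SLC7A1, SLC7A5 and SLC7A6 moved by -0.69, -0.43 and -0.47. Those of SLC29A2 and SLC29A3 moved by -0.77 and -0.76, and SLC29A2 had S154D_DMSO 2 apart from the group's other arrays. The SLC22 family had 3 of 11 values above 0, with a median of -0.22 and 1 gene called. The median of the SLC2 hexose carriers was 0.00, with 5 of 10 above 0 and none called, and that of the SLC16 family was 0.02, with 6 of 12 above 0 and 1 gene called.

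With S154A, CDCA changed none of the 87 members at an adjusted p under 0.05 in limma, in a comparison where 0.133% of all genes were called. At an unadjusted p under 0.05 there were 12 members (13.8%), against 5.93% of all genes. Groups without overlap and with CDCA higher were found for 10 members (11.5%), against 3.77% of all genes, and with CDCA lower for 9 (10.3%), against 7.98%. The median change of members was 0.00, against -0.04 over all genes, and the median size of a change was 0.23, against 0.13. The members were therefore centred near 0 with a wider spread than all genes, and whether that differs from the rest was not tested.

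SLC29A1, which equilibrates adenosine and other nucleosides, had the smallest p with S154A. It read 2.11, 2.34 and 2.19 in S154A with CDCA, against 1.66, 1.84 and 1.78 in S154A with DMSO. The change was 0.45 ± 0.09 (SE, adjusted p = 0.218 by limma, n = 3 arrays each), at 0.53 and 0.33 within the 2 slides that held both groups. With S154D it ran the other way, at 1.72, 1.82 and 1.69 in CDCA, against 1.94, 1.93 and 1.95 in DMSO, without overlap (-0.20 ± 0.09, adjusted p = 0.196 by limma, n = 3 arrays each).

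SLC6A6, the taurine carrier, read 0.60, 1.04 and 0.79 in S154A with CDCA, against 0.24, 0.35 and 0.38 in S154A with DMSO (0.49 ± 0.12, adjusted p = 0.418 by limma, n = 3 arrays each). SLC7A5 read 2.36, 2.20 and 2.55 in S154A with CDCA, against 1.86, 1.96 and 1.82 in S154A with DMSO (0.49 ± 0.16, adjusted p = 0.767 by limma, n = 3 arrays each). The arrays did not overlap in either gene, and their second kept probes moved by 0.30 and 0.40 with S154A, and by -0.42 and -0.43 with S154D. With S154D, the CDCA and DMSO arrays of both genes overlapped, at 0.56, 0.50 and 0.43 against 0.29, 0.45 and 0.47 for SLC6A6.

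On the probes used, some carriers stood higher with CDCA for both mutants without being called for either. SLC22A5, which brings carnitine into cells, read 0.72, 0.86 and 0.90 in S154D with CDCA, against 0.58, 0.50 and 0.58 with DMSO. With S154A it read 0.85, 0.91 and 0.83 in CDCA, against 0.55, 0.49 and 0.62 in DMSO, so no CDCA array overlapped a DMSO array of the same mutant (0.31 ± 0.09 with S154A, adjusted p = 0.571 by limma). SLC7A1 read -1.66, -1.51 and -1.39 in S154D with CDCA, against -1.74, -2.07 and -1.75 with DMSO. With S154A it read -1.48, -1.66 and -1.42 in CDCA, against -1.92, -2.01 and -1.77 in DMSO, again without overlap on this probe (0.34 with S154D and 0.38 with S154A). For SLC7A1 the 45% GC probe printed above went the other way with S154D. After the GC correction the changes with S154D were -0.03 for SLC22A5 and 0.03 for SLC7A1, while those with S154A were 0.32 and 0.39, so the direction with S154D was not kept for SLC22A5.

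**Figure D5:**
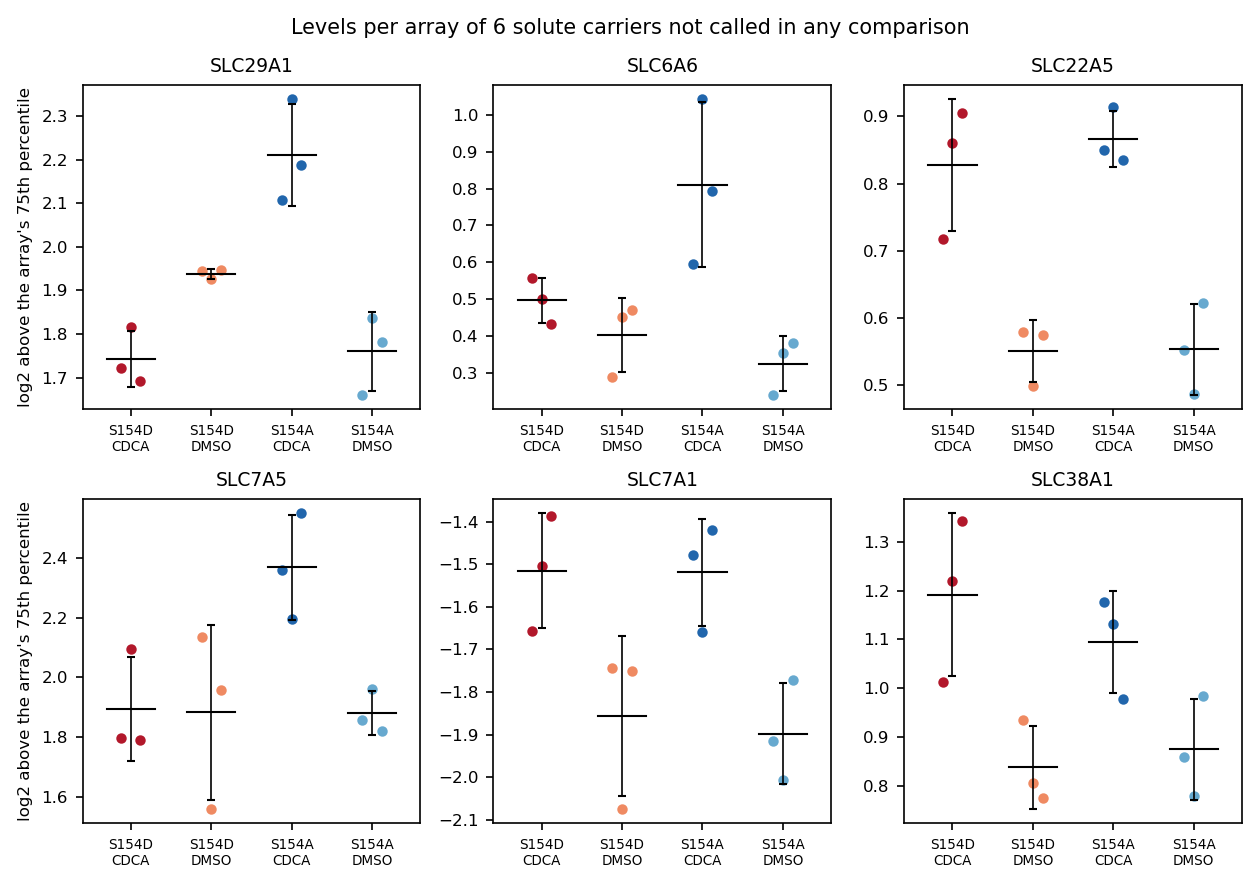
Level per array (log2 above the array's 75th percentile, vertical axis) of 6 solute carriers that were called in no comparison, in the 4 groups of 3 arrays, with the mean and SD. SLC29A1, SLC6A6 and SLC7A5 have their highest mean in S154A with CDCA, whereas SLC22A5, SLC7A1 and SLC38A1 have higher means with CDCA than with DMSO for both mutants.

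By family with S154A, all 5 SLC38 genes tested had values above 0 (median 0.39) and all 4 SLC29 genes did (median 0.21), against a median of -0.04 over all genes. Among the SLC38 genes, SLC38A3 (0.70) was well above background on 7 of 12 arrays. None of the 7 SLC5 genes was above 0 (median -0.28). The largest value in any member, 1.69 for SLC38A5, rested on S154A_DMSO 3, which read -7.56 and was not well above background, with -3.10 and -2.81 on the group's other arrays. SLC29A2 stood apart on the slide that held only S154A_CDCA 2 and S154D_DMSO 2, with -0.52 and -0.55 there, while its other 10 arrays lay between -2.23 and -1.68.

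Between the mutants in CDCA, SLC1A5 was the only member of 87 called, in a comparison that called 0.403% of all genes (0.329% in its direction, lower). It averaged -2.02 ± 0.27 in S154D with CDCA and -1.11 ± 0.21 in S154A with CDCA (SD, n = 3 arrays each), and the 3 S154D arrays lay below the 3 S154A arrays. The difference was -0.91 ± 0.15 (SE, adjusted p = 0.0380 by limma), and it was -0.88 on the slide with all groups. The call was kept with the slide as a random block (adjusted p = 0.0387 by limma) and lost with the slide as a fixed block (-0.93, adjusted p = 0.300 by limma) and with the GC correction (-0.74, adjusted p = 0.113 by limma). It was also lost without any of 10 of the 12 arrays, with adjusted p up to 0.206, and was kept without S154A_CDCA 2 or S154D_CDCA 1. Over all alternatives the adjusted p ran between 0.0216 and 0.852.

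The 4 members next in p were not called. SLC29A1 differed by -0.47 (adjusted p = 0.0649 by limma), SLC1A3 by 0.72 (adjusted p = 0.0671), SLC22A17 by -0.54 (adjusted p = 0.0716) and SLC29A4 by -0.62 (adjusted p = 0.0743). After the GC correction they stood, in that order, at -0.58, 0.57, -0.32 and -0.43 (adjusted p between 0.110 and 0.249 by limma). With the slide as a fixed block their adjusted p lay between 0.301 and 0.304 by limma. Spearman's rho between this difference and probe GC content was -0.25 across members, against -0.39 across all genes. In each of these 4 members the S154D and S154A arrays in CDCA did not overlap, as in 21 of 87 members (24.1%), against 28.5% of all genes. At an unadjusted p under 0.05 there were 18 members (20.7%), against 23.6% of all genes. SLC7A5 stood at -0.47 (adjusted p = 0.130 by limma), SLC6A6 at -0.31 and SLC2A1 at 0.34. The inositol, biotin, cystine, lactate, carnitine and glutamine carriers SLC5A3, SLC5A6, SLC7A11, SLC16A1, SLC16A3, SLC22A5, SLC38A1 and SLC38A2 had adjusted p between 0.579 and 0.959, and SLC1A4, SLC3A2, SLC7A1 and SLC43A1 between 0.878 and 0.988.

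Without bile acid, no member differed between S154D and S154A, and 0% of all genes did at an adjusted p under 0.05 in limma. At an unadjusted p under 0.05 there was 1 member (1.15%), against 4.32% of all genes. That member was SLC1A3, which stood at -4.22, -3.98 and -3.90 in S154D with DMSO, against -3.49, -3.95 and -3.44 in S154A with DMSO. Those arrays overlap, and the difference was -0.41 ± 0.15 (SE, adjusted p = 0.997 by limma, n = 3 arrays each). SLC22A4 followed at -0.42, SLC2A12 at -0.67 and SLC6A16 at 0.20, and SLC38A5 at 1.89 ± 0.99 again rested on S154A_DMSO 3. The difference between the mutants in DMSO also ran with probe GC content, in the other direction from CDCA with S154D. Spearman's rho was 0.22 across members, against 0.31 across all genes. The low-GC probe of a gene had the higher difference in 4 of 22 members (18.2%), against 34.3% of 4509 genes.

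Whether CDCA acted differently with S154D than with S154A was tested as an interaction (S154D minus S154A) in the same fit, and 0 of 87 members passed, against 0.138% of all genes called. SLC1A3 had 1.13 ± 0.21 and SLC1A5 -1.10 ± 0.21 (adjusted p = 0.0631 by limma for both), and SLC29A1 followed at -0.65 ± 0.13 (adjusted p = 0.0675 by limma) and SLC22A17 at -0.72 (adjusted p = 0.0780 by limma). After the GC correction SLC1A3 stood at 0.88, SLC1A5 at -0.85, SLC29A1 at -0.82 and SLC22A17 at -0.43. Their adjusted p then lay between 0.125 and 0.307 by limma, and between 0.300 and 0.302 with the slide as a fixed block. Spearman's rho between the interaction and probe GC content was -0.27 across members, against -0.40 across all genes. At an unadjusted p under 0.05 there were 15 members (17.2%), against 22.3% of all genes. In 5 members (5.75%, against 2.45% of all genes) the CDCA arrays lay wholly on one side of DMSO with S154D and wholly on the other with S154A. SLC1A5 and SLC29A1 were lower with CDCA for S154D and higher for S154A, and SLC22A4 and SLC36A4 were the other way round. The values of SLC13A5 did so too, but it was well above background on 1 of 3 arrays in each group other than S154D with CDCA, so its values with S154A give no direction. SLC13A5 passed the filter only through S154D with CDCA, so the share of 5.75% includes a gene without a readable direction. Whether that share differs from the 2.45% was not tested. The probe used for SLC36A4 moved by 0.14 with S154D and by -0.20 with S154A. Its second kept probe moved by -0.24 and -0.29, so the opposite directions of SLC36A4 held on the probe used only. For SLC22A5 and SLC7A1 the interaction was -0.04 for both, with 95% intervals of -0.31 to 0.24 and -0.44 to 0.36. After the GC correction it was -0.35 for both (adjusted p = 0.278 and 0.349 by limma). On the 45% GC probe of SLC7A1, which did not stand for the gene, the interaction was -0.89, outside the interval above and with no test.

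Genes that work with these carriers were read from further lists, beside the 6.55% of all genes called higher and 3.65% called lower with CDCA in S154D. Of 12 partners and regulators on the array, all tested, 2 rose and 0 fell with CDCA in S154D (median 0.10). TMEM27, also called collectrin, which brings SLC6 amino acid carriers to the kidney tubule membrane, rose by 0.69 (adjusted p = 0.0358 by limma), and ARRDC4, an arrestin-like protein that lowers glucose uptake, rose by 1.34 (adjusted p = 0.0450 by limma). Both probes have 35% GC. Of 34 genes of the amino acid response through ATF4, all tested, 2 rose, ATF3 (0.52) and MTHFD2 (0.50), with a median change of 0.18 for S154D and 0.16 for S154A, against -0.01 and -0.04 over all genes. Their probes have 38.3% and 35% GC, and the second kept probe of ATF3 moved by 0.01 with S154D. The medians of this list are for the probes used, without the GC correction. Further kept probes of its genes moved with S154D by values from -0.91 for CEBPB to 0.51 for STC2, more of them below 0 than above. Of 5 tonicity response genes tested, 1 rose, the transcription factor NFAT5 (0.43), and its carrier targets SLC6A6 and SLC5A3 were not called. The NFAT5 probe used has 35% GC, and the second kept probe of NFAT5 moved by 0.03 with S154D.

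The other organic anion and bile acid carriers on the array, 17 genes outside the 16 families, had 9 tested. Of these, 3 were called with CDCA in S154D, where 10.2% of all genes were: SLCO2B1 (1.15) and SLCO4C1 (0.94) rose and SLCO3A1 (-0.69) fell. The probes used for SLCO2B1 and SLCO4C1 have 35% GC, and that of SLCO3A1 has 45%. OSTalpha, a subunit of the basolateral bile acid exporter and a known FXR target, rose with S154A by 2.56 ± 0.18 (adjusted p = 0.000246 by limma, n = 3 arrays each). It was at 3.17, 3.01 and 2.92 in S154A with CDCA, against 0.46, 0.76 and 0.22 in S154A with DMSO, while the 87 solute carriers tested had no call with that mutant.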

How the data were processed

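Total RNA was hybridised to Agilent whole human genome 4x44 arrays (12 arrays, 4 slides). Per the file headers, the authors' deposited scanner files hold an intensity that Agilent Feature Extraction (version 9.5.3.1 per the headers, 12 per the submitters' processing notes) had background-subtracted, with a flag (other values, 0 or 1) for spots well above background. The deposited series table held the same intensity on all 12 arrays, to a relative tolerance of 1e-05, so no normalisation between arrays had been applied.

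Here, log2 of the processed signal minus the array's 75th percentile was used (percentile 1235 to 2105, 61.6% to 79.8% of 43376 non-control spots well above background, 0 to 3 saturated). Outlier spots (66 to 196 per array) were removed and spots averaged into 41000 probes. A probe was kept if any group had all 3 of its arrays well above background (26898), and the brightest kept probe stood for a gene (20355). For 25 members tested, more than 1 probe was kept. A mean per group was fitted with limma 3.58.1 (R 4.3.3) on all 12 arrays, with two-sided p-values adjusted over all genes tested by the Benjamini-Hochberg method. The number of arrays limits the precision. The fit was tested on simulated data with independent noise and no slide effect or GC trend, so that test cannot bear on either.

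The members and lists were chosen with earlier results of these data known. Named are called members without overlap between groups (up to 12 each way), otherwise the 5 with the smallest p, a list of 21 well known carriers, and up to 4 genes of each further list. A gene that the rule names is not reported here. Other genes named, such as those just outside the threshold, were chosen after their values were seen. Alternatives were normexp, quantile normalisation, the series table, other filters, the mean of probes, slide and replicate blocks, a GC correction, and leaving out slides or arrays.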

Additional observations from a re-analysis of the deposited data

How the results depend on the processing

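The count of members called for CDCA with S154D, 8, became 4 with normexp background correction. It became 0 with the series table without scaling, without a filter, with the slide as a fixed block, with the replicate block, with the GC correction, without slide 2, and with only the groups compared in the fit. Leaving out each array gave counts from 0 to 8. Quantile normalisation and a filter on all arrays gave 9 each, a random slide block 9, and the mean of a gene's probes or leaving out slide 4 gave 7. Over all genes the count of 2077 became 1558 with normexp, 2497 with quantile normalisation, 2615 with the filter on all arrays, 50 without slide 2, 1 with the series table, and 0 without a filter, with the fixed slide block, the replicate block or the GC correction. For S154D against S154A in CDCA, the count of 1 became 3 with quantile normalisation and 0 with the series table, without a filter, with the fixed slide block, the replicate block, the GC correction, without slide 2 and with only the groups compared, and 0 to 3 on leaving out each array. The count for the difference of responses, 0, became 1 with normexp, 2 with quantile normalisation and 2 with the filter on all arrays, and stayed at 0 on leaving out each array. Counts for CDCA with S154A and for the mutants in DMSO were 0 on leaving out each array too. The difference of NR1H4 ranged from -0.10 to 0.04 on leaving out each array. The cause of these changes was not tested, except that leaving out slide 2 leaves 1 array of S154D with CDCA, which is then assumed to vary like the other groups.

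The correlations of deviations for 18 same-numbered pairs ran from -0.35 to 0.51, and 9 of them were over 0.1. Those of replicate 3 lay between 0.07 and 0.37, and pairs with different numbers ran from -0.48 to 0.49. These values do not settle whether replicate numbers pair the arrays, and the replicate block is given here only. A fit of only the groups compared cannot give the difference of responses. With 12 arrays of monkey RNA on human probes, low signals limit 16 members that were not well above background on all arrays.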
